A study of Mus musculus with 3 samples.

Results

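Matrix fibroblasts with Postn or Lrrc15 were segmented cells in sections of mouse mammary tumours in which Col1a1 made up at least 15% of the panel transcripts and Postn and Lrrc15 together had at least 3. Cells with more than 1 transcript over Pi16, Dpt and Clec3b, genes of adventitial fibroblasts, were left out. Members were thus chosen by their own measured levels of these 6 genes, which are described and not tested. The rule was met by 36301 of 1747403 kept cells, 18531 in tumour 1, 8799 in tumour 2 and 8971 in tumour 3. They were set against Col1a1 cells without Postn and Lrrc15 (Col1a1 at least 15%, no transcript of either gene; 30786 cells, called negative Col1a1 cells from here on) and, as a description, against all other kept cells. The limit on Pi16, Dpt and Clec3b was not set for negative Col1a1 cells. It was met by 5501, 11392 and 10693 of them in tumours 1, 2 and 3. All sections came from FFPE mammary tumours of the MMTV-PyMT line titled WT, 1 section from each of 3 tumours, with no treatment. In this line the mammary-active MMTV promoter drives the polyoma middle T oncogene. The labels state neither what WT refers to nor the age of the mice. Every p-value below measures only how a difference within sections varied over these 3 tumours. The labels do not say whether the tumours came from separate animals.

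Fibroblasts that make fibrillar collagen build the stroma between tumour nests. Col1a1 encodes a chain of type I collagen. Postn encodes periostin, a matricellular protein that binds collagen and integrins, and Lrrc15 is a membrane protein of activated, TGF-beta-exposed fibroblasts in tumours. Pi16, Dpt and Clec3b mark fibroblasts around vessels and in fascia, from which activated fibroblasts are thought to derive.

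Transcripts were counted by MERSCOPE, an imaging platform that decodes single RNA molecules inside the section and sorts them into segmented cells. The tables used here hold 258 genes and 27 blank codes, barcodes given to no gene, whose counts give the false decoding rate. The median kept cell had 94 to 106 panel transcripts in each section, and blanks made up 0.481% to 0.503% of all codes. No cell identifier was shared between sections. Genes counted as above background had a larger sum than every blank in each of the 3 tumours. In matrix fibroblasts 90 genes did so, and in negative Col1a1 cells 68.

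Matrix fibroblasts made up 2.99% of kept cells in tumour 1 (95% Wilson interval 2.95% to 3.03%), 1.94% in tumour 2 (1.898% to 1.98%) and 1.33% in tumour 3 (1.30% to 1.36%). These intervals cover counting error only. The intervals of the 3 tumours did not overlap, and tumour 1 had the highest share. Among all cells with Col1a1 at or over the limit, 45.9%, 23.2% and 25.4% were matrix fibroblasts in tumours 1, 2 and 3, and 15.6%, 33.9% and 32.8% were negative Col1a1 cells. Tumour 1 was thus the only section in which matrix fibroblasts outnumbered negative Col1a1 cells.

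The rule fixed the levels of Col1a1, Postn and Lrrc15, so only fibroblast genes outside it bear on the name, and these were unevenly detected. Of 13 fibroblast markers listed, 7 were on the panel, and 4 of these lay outside the rule: Sparc, Pdgfra, Thy1 and Mmp2. Sparc, a collagen-binding matricellular protein, stood at 66.0, 65.1 and 67.9 transcripts per 1000 panel transcripts in matrix fibroblasts of tumours 1, 2 and 3. Pdgfra, the PDGF receptor of fibroblasts, stood at 2.97, 2.92 and 1.87, and Thy1, a surface glycoprotein of mesenchymal cells, at 1.74, 1.28 and 1.16. The highest blank reached 1.01, 0.907 and 0.917 in the same cells, so that Sparc stood far above background and Thy1 barely. Acta2, the smooth muscle actin of myofibroblasts, stood at 0.72, 0.54 and 0.59 and was under the highest blank in every tumour. Mmp2 was not above background in all sections as a whole. Outside the rule the name therefore rests mainly on Sparc, with Pdgfra and Thy1 at lower levels.

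Markers of other cell types were also counted in these cells. Per 1000 transcripts outside the 6 rule genes, the 11 epithelial markers summed to 58.3 ± 3.5 in matrix fibroblasts, 66.1 ± 4.1 in negative Col1a1 cells and 131 ± 10.6 in epithelial-gated cells (SD, n = 3 tumours each). The 2 endothelial markers summed to 3.75 ± 1.08 in matrix fibroblasts, 4.53 ± 1.37 in negative Col1a1 cells and 1.42 ± 0.47 in all other kept cells. The 4 pericyte or smooth muscle markers summed to 21.9 ± 1.9, 19.6 ± 2.8 and 14.1 ± 1.8 in the same order, so that both lists were above the level of other kept cells. For the 10 macrophage or dendritic markers the sums were 11.7 ± 4.1 in matrix fibroblasts, 16.9 ± 5.4 in negative Col1a1 cells and 11.8 ± 1.8 in other kept cells. The 8 T, NK or B cell markers summed to 5.03 ± 1.3 in matrix fibroblasts, 3.59 ± 0.34 in negative Col1a1 cells and 1.63 ± 0.12 in other kept cells, and the 4 neutrophil or mast cell markers to 3.85 ± 0.93, 5.23 ± 1.3 and 1.45 ± 0.18 in the same order. Of these genes Cd3g and Csf3r were above the highest blank in matrix fibroblasts of all 3 tumours. Of other defining immune genes, Ptprc, the leukocyte antigen CD45, averaged 0.22 per 1000 panel transcripts in matrix fibroblasts, Cd4 0.21, Cd8a 0.13 and Foxp3 0.13, all under the highest blank in all 3 tumours. Rule genes were also found outside the class: Postn averaged 3.69 ± 0.69 per 1000 in epithelial-gated cells, against 29.2 ± 5.5 in matrix fibroblasts.

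Within the class, Postn was the more frequent of the 2 genes. A median of 4 Postn transcripts per cell was counted in each tumour, while the Lrrc15 median was 1, 0 and 1. Cells with both genes made up 66.8%, 49.0% and 54.5% of matrix fibroblasts in tumours 1, 2 and 3, cells with 3 or more Postn and no Lrrc15 made up 32.3%, 50.5% and 44.6%, and cells with 3 or more Lrrc15 and no Postn made up 0.993%, 0.421% and 0.903%. Lrrc15 without Postn was therefore rare in every section. Col1a1 stood at 351, 409 and 437 per 1000 panel transcripts, Postn at 34.4, 29.8 and 23.5, and Lrrc15 at 8.95, 4.94 and 5.26. Tumour 1 had the lowest Col1a1 level and the highest levels of both Postn and Lrrc15.

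Cells just inside the limits were set beside those just outside. Per 1000 transcripts outside the rule genes, Tnc stood at 19.5 ± 5.4 in members with a Postn and Lrrc15 sum of 3 and at 16.3 ± 4.8 in cells with a sum of 2 that met the other limits, and it was higher at a sum of 3 in each tumour, as were Dkk3 and Sparc. At a Col1a1 share of 15% to 16% Tnc stood at 12.8 ± 1.9, and at 14% to 15%, outside the limit, at 12.02 ± 2.2. Tnc was lower inside this limit in tumour 3. Dkk3 was higher inside it in each tumour, while Sparc was lower inside it in each tumour (76.4 ± 6.4 against 78.0 ± 7.5). With 1 transcript of Pi16, Dpt and Clec3b Tnc stood at 28.1 ± 7.1, and with 2, outside the limit, at 32.3 ± 9.98 (SD, n = 3 tumours each). Tnc, Dkk3 and Sparc were all higher outside the adventitial limit in each tumour. The adventitial limit left out 4613, 4086 and 1096 cells of tumours 1, 2 and 3 that met the other limits.

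The rule also selected cells of greater depth. Matrix fibroblasts had a median of 161, 173 and 173 panel transcripts, against 58, 54 and 57 in negative Col1a1 cells. Outside the rule genes the medians were 95, 92 and 89, against 39, 32 and 34. The medians of the 2 classes did not overlap, while single cells did: 4792, 4981 and 5337 cells of each class could be matched on their transcripts outside the rule genes. A value in these depth-matched cells is given below where it ended or made a call or clearly moved the difference, and for the genes described first.

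Set against all other kept cells, the class had high levels of PDGF receptors, tenascin-C and Dkk3 outside the rule genes. These ratios describe genes of the cells that the rule selected and were not tested. Besides the rule genes, where Col1a1 was 12.5-fold, Lrrc15 9.27-fold and Postn 6.05-fold the level in other cells, the genes with the highest ratios included Cd3g, Pdgfrb, Dkk3, Ccl2, Tnc, Thy1, Crabp1, Prf1, Mmp3, Pdgfra, Fn1, Sparc, Lag3 and Csf3r. Pdgfrb, the PDGF receptor of mural cells and fibroblasts, stood at 6.75, 6.401 and 5.27 per 1000 panel transcripts, and 5.94-fold the level elsewhere. Dkk3, a secreted Dickkopf family protein, was at 5.39-fold, and Tnc, the matricellular glycoprotein tenascin-C, at 4.99-fold.

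The list also held genes that are known from lymphocytes and granulocytes. Cd3g, a chain of the T cell receptor complex, was at 8.99-fold with 2.68, 1.34 and 1.26 per 1000, Prf1, the pore-forming protein perforin, at 3.84-fold, Lag3, an inhibitory receptor of T cells, at 2.82-fold and Csf3r, the G-CSF receptor of neutrophils, at 2.35-fold. The highest blank was itself 2.25-fold higher in matrix fibroblasts than in other kept cells. All blanks together made up 0.499% ± 0.045 of codes in matrix fibroblasts and 0.484% ± 0.012 in other kept cells (SD, n = 3 tumours). Cd4, Cd8a and Foxp3 were at 0.92-fold, 0.56-fold and 0.53-fold. Whether the codes of Cd3g and Prf1 were read from other molecules was not tested.

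**Figure D1:**
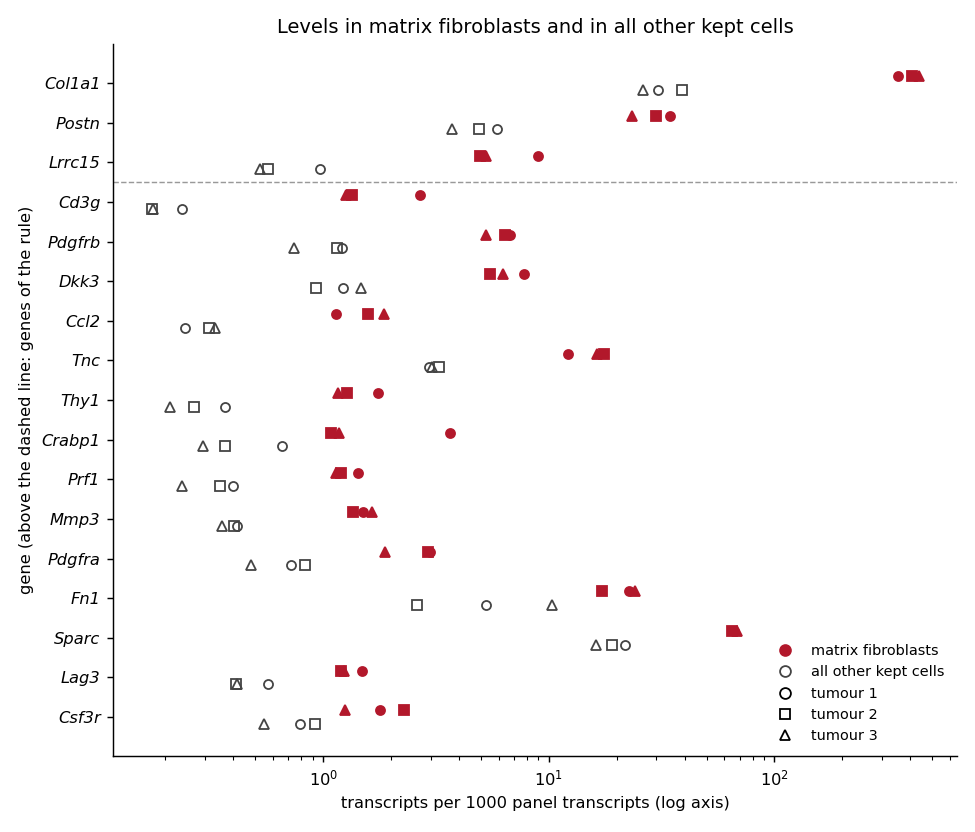
Level of the 3 rule genes that raise a cell into the class and of 14 other genes among those with the highest ratios, in transcripts per 1000 panel transcripts on a log axis; filled symbols are matrix fibroblasts and open symbols all other kept cells, with 1 symbol shape per tumour. In each of the 3 tumours the filled symbol of a gene lies right of its open symbol, with Cd3g at 8.99-fold and Csf3r at 2.35-fold as the ends of the lower block.

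The levels differed between tumours most for Crabp1, a cytosolic retinoic acid binding protein. It stood at 3.64 per 1000 panel transcripts in tumour 1, 1.08 in tumour 2 and 1.17 in tumour 3, a coefficient of variation of 73.8% over tumours. Fzd1, a Wnt receptor, stood at 8.71, 4.95 and 2.93, and Thbs1, the matricellular protein thrombospondin-1, at 14.7, 10.6 and 25.04. Sparc had the lowest coefficient of variation of the 90 genes above background, 2.21%. Tumour 1 had the highest level of Crabp1 and Fzd1, and tumour 3 that of Thbs1.

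Compared with negative Col1a1 cells of the same sections, matrix fibroblasts carried more transcripts of tenascin-C, of the secreted proteins Dkk3 and Wif1, and of both PDGF receptors. They carried less Klf4 and Irf7 and fewer transcripts of 7 of 10 macrophage or dendritic markers. The negative cells were not held to the adventitial limit, and the Klf4 fall was lost once they were, in depth-matched cells (below). Of 252 genes outside the rule, 48 were higher (19.0%) and 37 lower (14.7%) at an adjusted p under 0.05 in edgeR's quasi-likelihood test with the tumour as a block, or 33.7% in either direction, with 1 direction in all 3 tumours for each of the 85. The split was 40 higher and 79 lower with library size scaling alone, which placed the median of all genes at -0.13 against -0.02. Leaving out tumour 2 left 27 calls and leaving out tumour 3 left 56. With depth-matched cells 42 of the higher and 21 of the lower genes were called in the same direction. Of the 48 higher genes 28 were above background in all sections, and of the 37 lower genes 19. By the same test 3 of 27 blanks were higher and 1 lower, with log2 differences of blanks from -0.83 to 0.58.

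Tnc changed most among genes above background over all kept cells of each section. It stood at 20.2, 31.6 and 30.7 per 1000 transcripts outside the rule genes in matrix fibroblasts of tumours 1, 2 and 3, against 7.58, 13.9 and 13.7 in negative Col1a1 cells. The groups did not overlap, and the log2 difference was 1.36 ± 0.08 (SE, adjusted p = 9.24e-05) and 1.54 in depth-matched cells. Of the 7 matricellular genes tested, 4 were higher and 1 lower, with a median log2 difference of 0.41 beside -0.02 over all genes. Fn1, fibronectin, rose by 0.41 ± 0.13 (0.68 in depth-matched cells), Thbs1 by 0.48 ± 0.09 and Chad, chondroadherin, by 0.59 ± 0.17, although depth matching ended the calls for Thbs1 (adjusted p = 0.0548) and Chad (adjusted p = 0.0891). Bglap3, an osteocalcin-related gene, fell by 0.53 on the log2 scale. Sparc stood at 109, 117 and 128 against 117, 105 and 104 and did not pass the test (log2 difference 0.23 ± 0.13, adjusted p = 0.206), while in depth-matched cells it was 0.55 higher (adjusted p = 0.00239). Col4a1, a basement membrane collagen, passed in neither (0.15 ± 0.10, adjusted p = 0.25, and -0.18, adjusted p = 0.303).

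Enzymes and inhibitors of matrix turnover were mostly higher. Of 6 genes of matrix remodelling 4 rose and none fell, with a median of 0.49. Mmp14, a membrane-bound metalloproteinase, stood at 11.3, 8.75 and 7.28 in matrix fibroblasts, against 8.28, 6.45 and 5.43 in negative Col1a1 cells, ranges that overlapped although each tumour showed the rise (0.55 ± 0.07, adjusted p = 0.00185). Mmp2, Mmp13 and Timp1 rose by 0.58, 0.81 and 0.43 on the log2 scale (Mmp2 by 1.04 in depth-matched cells) but were not above background in all sections.

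Genes of secreted proteins on the Wnt list moved in opposite directions. Dkk3 stood at 12.9, 9.84 and 11.8 in matrix fibroblasts, against 6.70, 4.96 and 6.49 in negative Col1a1 cells, without overlap (1.04 ± 0.07, adjusted p = 0.000124; 1.42 in depth-matched cells). Wif1, which binds Wnt ligands, rose by 0.91 ± 0.19, with 2.71, 1.53 and 2.53 against 1.76, 0.551 and 1.95, ranges that overlapped although each tumour showed the rise. In matrix fibroblasts of tumour 2 Wif1 was under the highest blank of these cells. Sfrp1, a secreted Frizzled-related protein, fell by 0.40 on the log2 scale. Sfrp4, of the same family, fell by 2.76, with 0.150, 0.131 and 0.162 against 1.12, 0.976 and 1.13, and was not above background in any section as a whole. Of 21 genes of the Wnt list 4 rose and 2 fell, with a median of -0.03, close to that of all genes. Outside that list the receptor Fzd1 rose by 0.79 ± 0.07 and Porcn, the acyltransferase that prepares Wnt ligands for secretion, by 0.73 ± 0.09.

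Both PDGF receptors and 2 of 4 contractile genes were higher. Pdgfra stood at 4.92, 5.27 and 3.51 in matrix fibroblasts, against 3.03, 3.56 and 2.04 in negative Col1a1 cells (0.79 ± 0.08, adjusted p = 0.00104; 1.15 in depth-matched cells). The ranges met, since the lowest member level was below the highest negative one. Pdgfrb stood at 11.2, 11.5 and 9.89, against 9.04, 6.83 and 5.53 (0.74 ± 0.12, adjusted p = 0.00636). Mylk, the myosin light chain kinase, rose by 0.74 ± 0.11, and of the contractile genes Tagln (transgelin, 0.58 ± 0.13) and Myl9 (a regulatory myosin light chain, 0.44 ± 0.13) rose, with a list median of 0.41. Acta2 did not pass (0.39 ± 0.15, adjusted p = 0.0815), but did in depth-matched cells (0.34, adjusted p = 0.0309). Of 4 pericyte or smooth muscle markers Pdgfrb and Rgs5 rose, and the list summed to 21.6, 24.0 and 20.2 per 1000 in matrix fibroblasts, against 22.8, 18.8 and 17.3 in negative Col1a1 cells.

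Several genes with other known sites of expression also rose. Cpt2, a mitochondrial enzyme of fatty acid oxidation, stood at 3.65, 3.79 and 3.14 in matrix fibroblasts, against 1.30, 1.54 and 1.63 in negative Col1a1 cells, without overlap (1.35 ± 0.10, adjusted p = 0.000264). Cd3g stood at 4.44, 2.42 and 2.37, against 1.40, 1.03 and 1.18 (1.40 ± 0.12), while the other 7 markers of the T, NK or B cell list did not pass. That list summed to 6.56, 4.36 and 4.18 in matrix fibroblasts, against 3.95, 3.54 and 3.28 in negative Col1a1 cells. Krt5 and Krt14, keratins of basal epithelium, rose by 0.90 ± 0.12 and 0.63 ± 0.09, the only 2 of 11 epithelial markers to pass, while the list as a whole summed to 62.1, 55.2 and 57.5 against 64.2, 63.3 and 70.8. Of 8 mesenchymal transition factors Snai1, Snai2 and Twist1 rose by 0.35, 0.75 and 0.35 (Twist1 by 0.71 in depth-matched cells), and of these only Snai1 was above background in all sections. The part that neighbouring epithelial transcripts take in these values was not tested.

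Among genes above background over all kept cells of each section the largest fall was that of Klf4, a Krüppel-like transcription factor. It stood at 2.15, 1.603 and 1.27 in matrix fibroblasts, against 4.15, 2.45 and 2.76 in negative Col1a1 cells, without overlap (log2 difference -0.78 ± 0.11, adjusted p = 0.00286). In matrix fibroblasts of tumours 2 and 3 Klf4 was under the highest blank of these cells. The Klf4 difference was -0.43 in depth-matched cells and 0.08 once the negative cells were also held to at most 1 transcript of Pi16, Dpt and Clec3b. Of 7 immediate early genes 3 fell, Klf4, Atf3 (-0.38 ± 0.11) and Junb (-0.28 ± 0.08; adjusted p = 0.0732 in depth-matched cells), and none rose, with a median of -0.26. Irf7, a regulator of the interferon response, stood at 2.01, 5.04 and 3.37, against 2.77, 8.98 and 4.71 (-0.49 ± 0.10, adjusted p = 0.0133), the only 1 of 8 interferon genes to pass.

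Macrophage or dendritic markers were lower as well. Of 10 macrophage or dendritic markers 7 fell and none rose, with a median of -0.43 and list sums of 15.7, 11.9 and 7.505 per 1000 in matrix fibroblasts, against 21.5, 18.2 and 11.1 in negative Col1a1 cells. Lyve1, Cd163 and Ccl8, known from resident macrophages, fell by 1.30, 1.06 and 0.93 on the log2 scale and were not above background in any section. In depth-matched cells these differences were -0.91, -0.44 and -0.57. H2-Aa, a class II chain, fell by 0.47, Irf8, a myeloid transcription factor, by 0.49, and Cd14, the lipopolysaccharide co-receptor, by 0.31. Among genes named here, depth matching also ended the calls for the macrophage genes Adgre1 and Folr2 and for H2-Aa, Irf8, Rbpj (a Notch nuclear effector) and Csf3r, whose difference of -0.38 ± 0.07 became 0.09. Dll4, a Notch ligand of endothelium, and Pecam1, an endothelial adhesion molecule, each fell by 0.30, and both by 0.69 in depth-matched cells. The Hippo pathway regulator Wwc1 and the kinase Map3k1 fell by 0.33 and 0.35 (Wwc1 by 0.63 in depth-matched cells). Both adipocyte markers, Cd36 and Pparg, fell, and of 12 TGF-beta genes 1 rose and 2 fell (Tgfbr3 and Id2), with a median of -0.09.

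**Figure D2:**
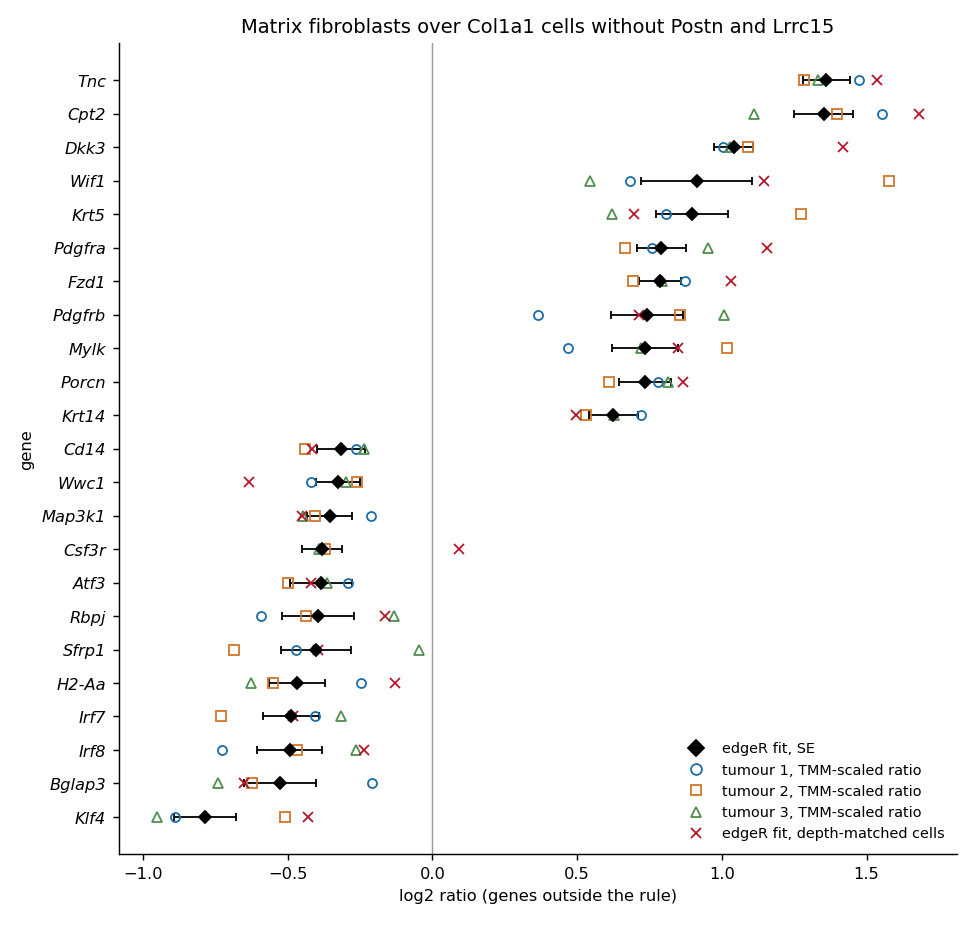
Log2 difference of matrix fibroblasts over negative Col1a1 cells for 11 genes with large rises and the 12 with the largest falls among those passing the test above background; black diamonds are the edgeR fit with its SE, open symbols the 3 tumours after TMM scaling, and red crosses the fit in depth-matched cells. Tnc, Cpt2 and Dkk3 lie above 1 in the fit, and the cross of Csf3r lies on the other side of 0.

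Among matrix fibroblasts themselves, a higher share of Postn and Lrrc15 went with more tenascin-C and fewer transcripts of Sox9 and Gata3. Since that share also chose the cells, these levels are a description. Where Postn and Lrrc15 made up under 5%, 5% to 10% and 10% or more of a cell's panel transcripts, Tnc stood at 25.02 ± 6.8, 36.7 ± 9.2 and 53.4 ± 9.96 per 1000 transcripts outside the rule genes (SD, n = 3 tumours). In each tumour Tnc increased from each bin to the next. Dkk3 stood at 10.5, 15.97 and 19.4 and Fn1 at 35.8, 45.8 and 53.3 on average in the same order. In tumour 2 Dkk3 stood at 8.98, 13.7 and 13.4, with no rise into the top bin. The epithelial transcription factors Sox9 and Gata3 went the other way, with 19.9, 14.5 and 10.7 for Sox9 and 17.2, 11.9 and 8.35 for Gata3. Not all epithelial markers did so. Krt5 stood at 7.41, 10.8 and 11.7 on average, being highest in the top bin in tumour 3 (18.8) and lowest there in tumour 1 (7.72), and Krt14 stood at 2.08, 2.85 and 2.40. Col4a1 stood at 77.2, 59.6 and 49.8 on average, and at 70.2, 66.3 and 66.8 in tumour 1 alone, where the decrease was small. Median depth outside the rule genes was 104, 61 and 41.3 transcripts in these bins, since a high share is reached more easily in a shallow cell.

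**Figure D3:**
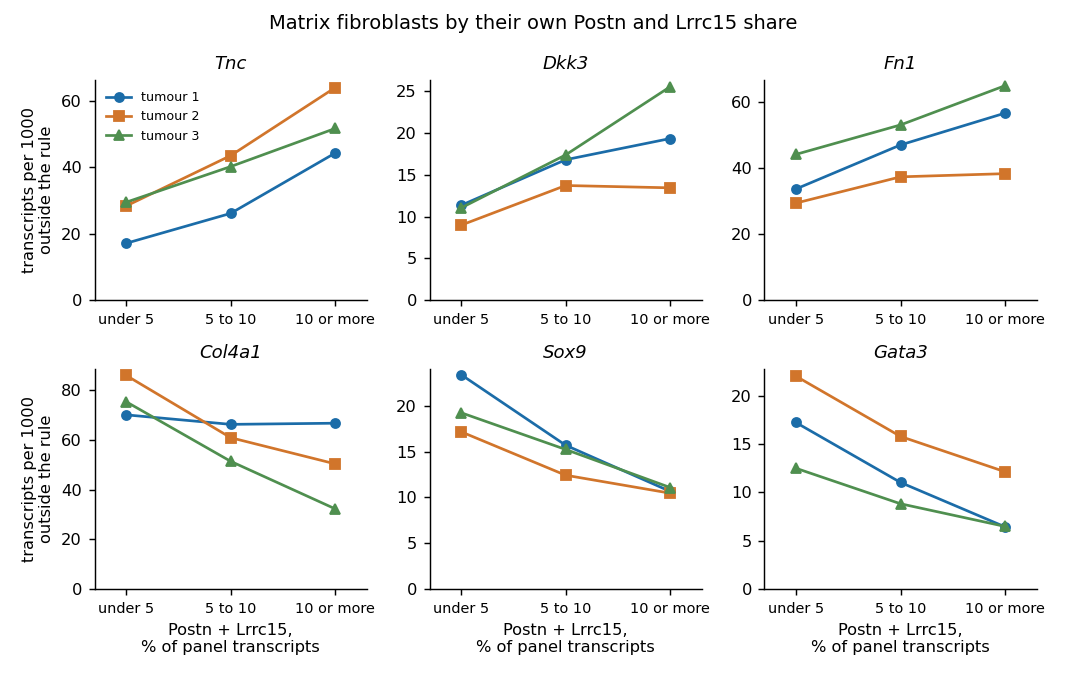
Levels of 6 genes, in transcripts per 1000 outside the rule genes, in matrix fibroblasts binned by the percentage of their panel transcripts that are Postn or Lrrc15; each line is 1 tumour. Tnc rises from bin to bin in all 3 tumours and Sox9 and Gata3 decrease, while Col4a1 in tumour 1 stays between 66.3 and 70.2.

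Few genes passed the test between cells with only 1 of the 2 marker genes. Postn-only matrix fibroblasts (5977, 4447 and 4005 cells) were compared with Lrrc15-only ones (184, 37 and 81 cells), with median panel transcripts of 134, 148 and 145 against 133.5, 134 and 168. Of 252 genes 4 were higher in the Postn-only cells (1.59%) and 3 lower (1.19%), or 2.78% in either direction. Rgs5, a regulator of G protein signalling in pericytes, stood at 3.60, 2.62 and 2.07 per 1000 transcripts outside the rule genes, against 1.10, 1.39 and 0.912, without overlap (1.39 ± 0.35, adjusted p = 0.00637). In Lrrc15-only cells Rgs5 was not above the highest blank in any tumour. Col4a1 stood at 86.4, 84.9 and 87.3, against 41.9, 74.3 and 53.0 (0.66 ± 0.20, adjusted p = 0.0403), and Mgp, an inhibitor of calcification, rose by 0.77 ± 0.23. The fourth, the laminin chain gene Lama3, had no transcript in Lrrc15-only cells of tumours 1 and 2 and was not above background. The genes lower in Postn-only cells included the cell cycle inhibitor Cdkn1c (-1.14 ± 0.29) and Crabp1 (-1.29 ± 0.27).

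The pericyte or smooth muscle list summed to 25.3, 25.9 and 23.6 in Postn-only cells, against 19.5, 16.7 and 16.5 in Lrrc15-only cells. In depth-matched cells 1 of the 7 calls was made again, Crabp1. Before matching it stood at 10.9, 1.67 and 2.995 in Lrrc15-only cells of tumours 1, 2 and 3, against 3.06, 1.54 and 1.43 in Postn-only cells. It was above the highest blank in 2 of 3 tumours in either class, and in 1 section as a whole. DESeq2 called none, with 19 genes at an unadjusted p under 0.05 against 27 in edgeR. Without tumour 3 the count was 1, and without tumour 2 it was 4. The number of Lrrc15-only cells limits this comparison.

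In the tissue, matrix fibroblasts were more frequent near the edge, but less so than negative Col1a1 cells. Within 150 µm of the tissue edge they made up 5.34%, 3.11% and 4.15% of kept cells in tumours 1, 2 and 3, against 2.69%, 1.68% and 1.09% at 500 µm or more. The margin share was higher in 3 of 3 tumours (log2 ratio 1.27 ± 0.58, SD, n = 3), with an exact sign-flip permutation p of 0.25, the smallest that 3 tumours can give. Negative Col1a1 cells made up 3.61%, 6.15% and 9.26% at the margin, against 0.899%, 2.35% and 1.03% inside (2.19 ± 0.91; exact p = 0.25). Of the 2 classes together, matrix fibroblasts were 41.4% ± 15.9 at the margin and 56.1% ± 17.1 in the interior, a difference of -14.6 ± 6.2 percentage points, negative in 3 of 3 tumours (exact p = 0.25). Tumours 2 and 3 reached the limit of imaging over 2975 and 3050 µm of outline, and such contact was not counted as edge.

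**Figure D4:**
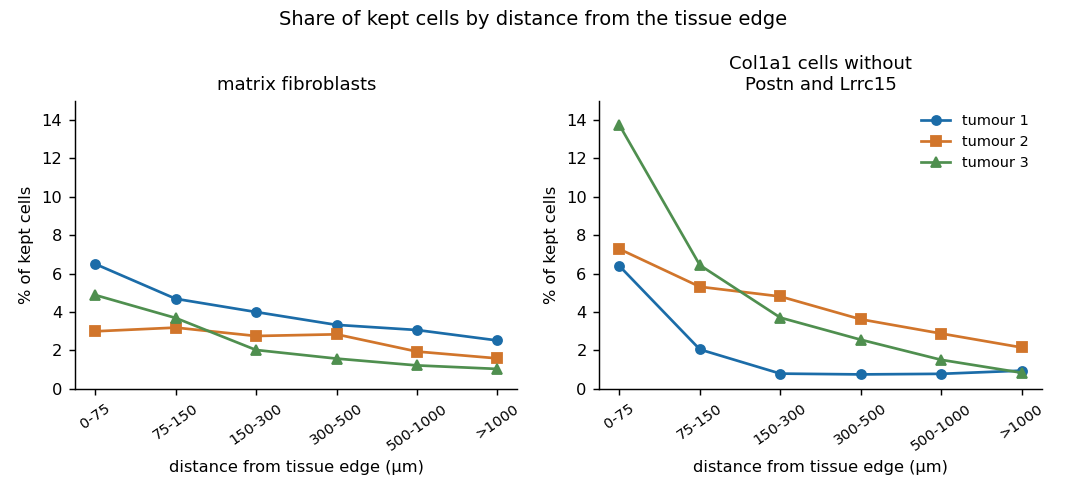
Share of kept cells that were matrix fibroblasts (left) and negative Col1a1 cells (right) in 6 ranges of distance from the tissue edge; each line is 1 tumour. In the innermost range the share of matrix fibroblasts was 2.52%, 1.59% and 1.04% in tumours 1, 2 and 3, and the outermost share of negative Col1a1 cells was 13.7% in tumour 3.

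Matrix fibroblasts were found at all depths of the sections. At more than 1000 µm from the edge they made up 2.52%, 1.59% and 1.04% of kept cells in tumours 1, 2 and 3, against 6.503%, 2.997% and 4.89% in the outermost 75 µm. In squares of 500 µm with at least 100 kept cells, the median share was 2.94%, 1.52% and 1.14%, and the 10th to 90th percentiles ran from 1.49% to 5.43%, from 0.246% to 4.43% and from 0.194% to 3.19%. The tenth of squares with the most members held 21.0%, 33.1% and 30.4% of them. Tumour 1 was the most even, and only 2 of its 226 squares lacked a member, compared with 14 of 322 and 14 of 356.

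In 3 of 3 tumours matrix fibroblasts had more matrix fibroblasts and more endothelial-gated cells among their neighbours than negative Col1a1 cells had. Within 25 µm of a matrix fibroblast 8.81% ± 0.78 of kept neighbours were matrix fibroblasts, against 5.48% ± 0.995 around negative Col1a1 cells, a difference of 3.33 ± 0.27 points (exact sign-flip permutation p = 0.25, the smallest possible, as for all neighbour classes below except ungated cells). Negative Col1a1 cells made up 4.52% ± 2.24 of the neighbours, against 10.2% ± 4.2. Endothelial-gated cells, with at least 3 transcripts of Pecam1 and Cdh5, made up 2.06% ± 0.66 against 1.65% ± 0.70, and pericyte-gated cells, with at least 3 of Pdgfrb and Rgs5, 1.09% ± 0.29 against 0.804% ± 0.242. Macrophage-gated cells, by Adgre1 and Cx3cr1, made up 1.16% ± 0.87 against 0.767% ± 0.654.

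Epithelial-gated cells were the most common neighbours of both classes, with 50.9% ± 6.7 around matrix fibroblasts and 48.2% ± 7.5 around negative Col1a1 cells. In depth-matched cells the difference for matrix fibroblast neighbours was 3.57 points, positive in 3 of 3 tumours. That for endothelial-gated neighbours was 0.0725 points and that for macrophage-gated neighbours 0.123 points, each positive in 2 of 3. The median distance to the nearest endothelial-gated cell was 33.7, 44.9 and 68.1 µm from matrix fibroblasts, against 42.3, 59.95 and 88.3 µm from negative Col1a1 cells. To the nearest macrophage-gated cell it was 36.0, 61.0 and 120 µm, against 51.9, 97.2 and 153 µm. Both distances were shorter for matrix fibroblasts in each tumour, and both were longest in tumour 3 in either class.

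Segmented volume was greater in the class. The median was 651, 759 and 780 µm3 in matrix fibroblasts of tumours 1, 2 and 3, against 524, 684 and 630 µm3 in negative Col1a1 cells (log2 ratio 0.26 ± 0.09, SD, n = 3; exact p = 0.25). A minimum count of Postn and Lrrc15 favours large cells, and in depth-matched cells the ratio was -0.19 ± 0.11.

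Matrix fibroblasts at the margin carried more Csf3r, Tnc and macrophage markers than those in the interior, and less Id2, Col4a1 and Dll4, the last near background. Those within 150 µm of the edge numbered 1672, 773 and 1299, and those at 500 µm or more 12834, 6035 and 5895. Of 258 genes 29 were higher at the margin (11.2%) and 26 lower (10.1%), or 21.3% in either direction, in edgeR's test with the tumour as a block. Dpt among the higher and Lrrc15 among the lower genes belong to the rule and are described only. With library size scaling alone 56 were higher and 11 lower, and the median of all genes was 0.26 against 0.07. Without tumour 1 no gene was called (69 at an unadjusted p under 0.05), without tumour 2 the count was 26 and without tumour 3 it was 17.

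Background was also higher at the margin. Blanks made up 0.708%, 0.649% and 0.902% of codes in margin cells, against 0.507%, 0.422% and 0.415% in interior cells, and 8 of 27 blanks were higher by the same test, with a median of 0.40. The genes above background in the sections had a median of -0.31 and the others 0.33, so that genes near background moved as the blanks did. Of the 29 higher genes 6 were above background in all sections, against 24 of the 26 lower genes.

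Matrix genes passed by position about as often as all genes, of which 21.3% passed. Those called were 1 of 4 fibrillar and basement matrix genes and 1 of 6 remodelling genes. Of 7 matricellular genes 2 were called, Tnc higher and Bglap3 lower. Tnc stood at 22.8, 20.7 and 29.97 per 1000 panel transcripts at the margin, against 9.69, 16.1 and 12.5 in the interior, without overlap (0.77 ± 0.17, adjusted p = 0.00592). Col4a1 stood at 28.9, 43.3 and 15.6, against 43.3, 45.7 and 44.3 (-0.91 ± 0.18, adjusted p = 0.00333), and the margin level of tumour 3 was far below the others. Mmp3, the metalloproteinase stromelysin-1, stood at 2.73, 2.66 and 3.72, against 1.19, 1.12 and 1.22 (1.16 ± 0.19, adjusted p = 0.00136), above background in the cells compared but in 1 section as a whole. Lrrc15 stood at 7.54, 4.06 and 3.63 at the margin, against 9.19, 5.25 and 5.67, and Postn at 35.5, 36.2 and 27.5, against 33.1, 27.8 and 21.3. Lrrc15 was thus lower and Postn higher at the margin in each tumour, but after TMM scaling Postn was higher in 2 of 3.

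Csf3r and most macrophage or dendritic markers were higher at the margin, while none of the 8 T, NK or B cell markers passed. Csf3r stood at 3.48, 5.19 and 3.60, against 1.34, 1.76 and 0.832 (1.495 ± 0.20, adjusted p = 0.000209), Prf1 at 2.65, 2.35 and 3.04, against 1.17, 0.979 and 0.755 (1.29 ± 0.22), and Ccl2, a chemokine that recruits monocytes, rose by 1.09 ± 0.25. Of 10 macrophage or dendritic markers 7 were higher and none lower, with a median of 0.72 and list sums of 21.1, 17.2 and 9.89 per 1000 transcripts outside the rule genes at the margin, against 13.6, 10.5 and 7.17 in the interior. Of these 7, Cx3cr1 and H2-Aa were above background in all sections, and Adgre1, Cd163, Folr2, Ccl8 and Lyve1 in none. The 4 neutrophil or mast cell markers summed to 6.59, 9.98 and 8.15, against 2.89, 3.87 and 2.13, of which Csf3r alone passed. Of 13 inflammatory fibroblast genes 5 were higher, Ccl2, Ccl5, Ccl8, Il1b and Il33, with a median of 0.31, and none of the 5 was above background in the sections. The part of immune cells lying beside fibroblasts in these values was not tested.

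Lower at the margin were some genes of the Notch, immediate early and epithelial lists. Dll4 stood at 0.510, 0.649 and 0.319, against 0.839, 0.954 and 0.949 (-1.13 ± 0.23, adjusted p = 0.00364). Each margin level of Dll4 was under the highest blank of matrix fibroblasts as a whole in that tumour. With Dll1, a Notch ligand, and Hey1, a Notch target, 3 of 11 Notch genes were lower and none higher. Id2, an inhibitor of helix-loop-helix factors, stood at 3.19, 2.55 and 1.78, against 4.79, 3.87 and 4.18 (-0.99 ± 0.18, adjusted p = 0.00201). Clu, the secreted chaperone clusterin, fell by 1.02, H2-K1, a class I chain, by 0.93, and Irf7 by 0.86 on the log2 scale. Jun, Junb and Egr1 made 3 of 7 immediate early genes lower, with a median of -0.45.

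Epithelial markers split at the margin. Gata3, Cldn4 (a tight junction claudin) and Sox9 fell by 0.74, 0.75 and 0.68 on the log2 scale, although the unscaled Cldn4 level of tumour 2 was 1.86 at the margin and 1.75 inside. Krt17, a keratin of basal and stressed epithelium, rose by 0.81 ± 0.21. The 11 markers summed to 52.4, 50.2 and 44.1, against 64.9, 56.9 and 58.9. With a margin of 300 µm the count of calls was 15. Depth-matched cells gave 30 higher and 27 lower genes.

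**Figure D5:**
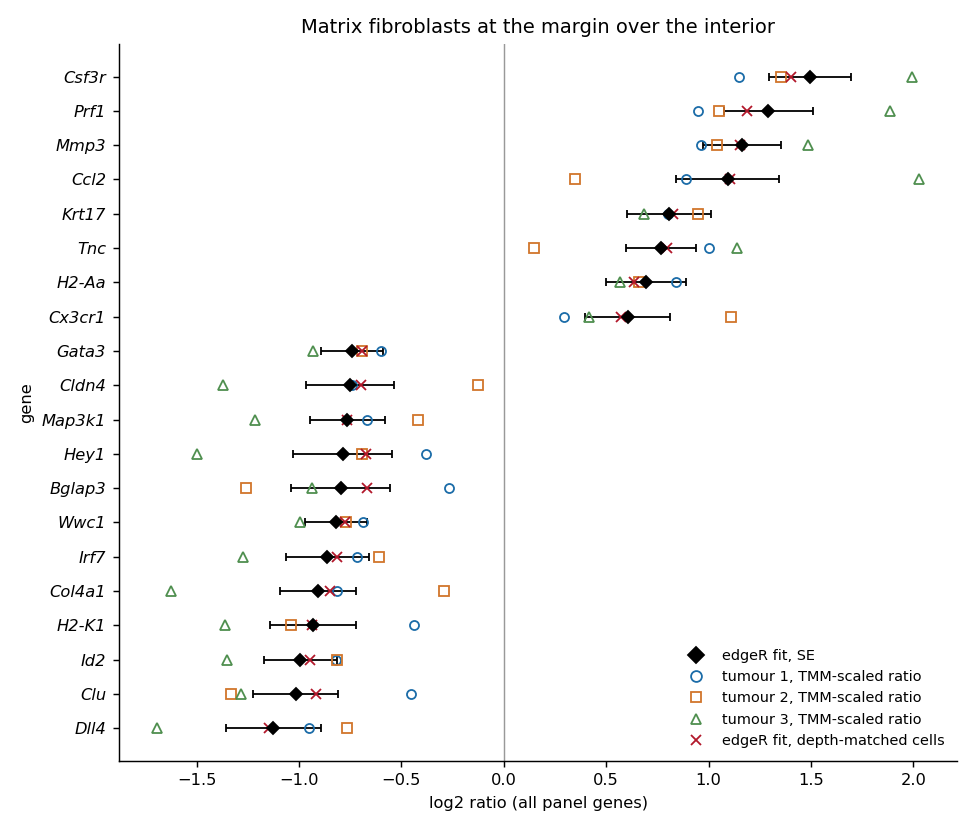
Log2 difference of matrix fibroblasts at the margin over those in the interior for the genes named by rule, without rule genes; black diamonds are the edgeR fit with its SE, open symbols the 3 tumours after TMM scaling, and red crosses the fit in depth-matched cells. Tumour 3 lies farthest from 0 for Csf3r, Ccl2 and Col4a1, and the symbols of every tumour lie on the same side of 0 as the fit.

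Few genes passed the test between epithelial cells next to matrix fibroblasts and those next to negative Col1a1 cells. Epithelial-gated cells with a matrix fibroblast within 25 µm numbered 149523, 45429 and 56997, and those with a negative Col1a1 cell within 25 µm and no matrix fibroblast within 50 µm numbered 6082, 16581 and 19893. Of 258 genes 4 were higher (1.55%) and 1 lower (0.388%) by edgeR's test, and with library size scaling 4 and 2. Leaving out tumour 1 gave 28 calls and leaving out tumour 3 gave 18, and DESeq2 gave 34. Postn, Lrrc15 and Col1a1, which chose the neighbours, stood at 6.04, 7.10 and 5.57 for Postn near matrix fibroblasts, against 3.54, 4.19 and 4.11 per 1000 near negative Col1a1 cells. Fn1 was the only other gene to rise, with 3.54, 1.97 and 6.73, against 2.69, 1.31 and 5.21 (0.48 ± 0.07, adjusted p = 0.0285). In epithelial cells with no transcript of Col1a1, Postn, Lrrc15 and Sparc the Fn1 difference was 0.32 (adjusted p = 0.612) and no gene passed, with 18 at an unadjusted p under 0.05. Ifit3, an interferon-induced gene, was lower by 0.77 at a level that was not above background in all sections. None of the 11 epithelial, 12 TGF-beta, 21 Wnt and 11 Notch genes passed, with medians of -0.06, 0.01, 0.00 and -0.01.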

How the data were processed

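The deposited tables give whole-number counts of decoded transcripts per segmented cell, not normalized, per the file headers. The deposited cell tables give a centre and a volume, a size signal with no unit in the headers, taken as µm and µm3. No source used here names the software for segmentation or decoding. Scanpy 1.9.3 appears in the submitters' processing notes, with no step attached. Kept cells had 20 or more panel transcripts and a volume of 50 µm3 up to 3 times the section median. No doublet caller was run. Epithelial-gated cells had at least 3 epithelial marker transcripts and Col1a1 under 5%. The tissue outline came from a 25 µm grid of kept cells. Counts were summed per tumour and class and tested in edgeR 4.0.16 (R 4.3.3, limma 3.58.1) with filterByExpr, TMM scaling and the quasi-likelihood test, two-sided, with Benjamini-Hochberg adjustment over all genes tested and a threshold of 0.05. The 6 rule genes were left out between classes chosen by them. Both classes of a comparison lie in the same sections, so tumour was a block and the pairing is physical. Shares were tested by exact sign-flip permutation over 3 tumours, two-sided. Depth matching drew equal numbers of cells per bin of transcripts outside the rule (seed 1). Alternatives were DESeq2 1.42.0, other scalings and limits, and left-out tumours. Calls were checked on simulated counts. Genes were named by rule: up to 12 a direction that passed the test above background with 1 sign in 3 tumours, up to 4 from each list, and the 15 highest ratios; 1 gene that met it is not reported here. Cd3g, Crabp1, Sfrp4, Acta2, Sparc, Junb, the leukocyte genes and some list members were singled out after their values were seen. Members and lists were chosen with earlier results of these data known.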

Additional observations from a re-analysis of the deposited data

How the results depend on the processing

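Against negative Col1a1 cells, the 85 calls became 240 with cell volume as offset (239 higher, 1 lower, median log2 difference 0.89), 138 in depth-matched cells with the adventitial limit on both classes, and 27 to 84 without 1 tumour. With no replicate block, which drops the pairing of both classes within a section, the counts fell to 5 against negative Col1a1 cells, 3 by position, 0 between Postn-only and Lrrc15-only cells (24 at an unadjusted p under 0.05 in edgeR) and 0 in epithelial cells (8 unadjusted). Of the genes named by size in the first comparison 22 of 24 lost their call without the block, and 11 without tumour 2. Under the volume offset 12 genes that fell turned positive: Wwc1 0.59, Atf3 0.53, Csf3r 0.53, Sfrp1 0.51, H2-Aa 0.45, Irf8 0.43, Cd14 0.60, Irf7 0.43, Bglap3 0.39, Klf4 0.13, Map3k1 0.56 and Rbpj 0.52. That offset scales by size and keeps the greater depth of matrix fibroblasts. Csf3r also turned to 0.092 in depth-matched cells and 0.086 with the adventitial limit added, which took Klf4 to 0.079. For margin against interior, the 55 calls became 26 with volume, 15 with a 300 µm margin and 0 to 26 without 1 tumour. For Postn-only cells, the 7 calls became 11 with volume, 0 in DESeq2 (19 unadjusted), 1 in depth-matched cells and 1 to 5 without 1 tumour. For epithelial cells, the 5 calls became 34 in DESeq2, 156 with volume, 10 in cells with at least 40 transcripts, 8 in the interior, 0 in cells without the 4 matrix genes (18 unadjusted) and 4 to 28 without 1 tumour. The causes were not tested.

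In percentage points, the margin difference among both Col1a1 classes was -20.9 with Col1a1 at 25%. The difference in matrix fibroblast neighbours was 2.67 at that limit and 6.05 within 15 µm. That in other Col1a1 neighbours was -2.09 at that limit, -0.25 with 5 Postn and Lrrc15 transcripts, -0.239 within 15 µm and 0.558 in depth-matched cells. That in endothelial-gated neighbours was 0.282 in cells with at least 40 transcripts, 0.578 with 5 Postn and Lrrc15 transcripts, 0.488 within 15 µm, 0.492 with the adventitial limit on both classes and 0.0725 in depth-matched cells. Macrophage-gated neighbours differed by 0.123 in depth-matched cells. Pericyte-gated neighbours differed by 0.377 with 5 transcripts and 0.173 in depth-matched cells. Epithelial-gated neighbours differed by 0.125 within 15 µm and -1.72 in depth-matched cells, and ungated ones by 1.16 with at least 40 transcripts. Neighbours per cell differed by 0.62 within 15 µm and 1.30 in depth-matched cells. The log2 volume ratio was 0.145 with at least 40 transcripts and -0.19 in depth-matched cells. Depth matching by position, between Postn-only and Lrrc15-only cells and for neighbours, and depth matching joined with the adventitial limit, were chosen after seeing the data. For these results, all other alternatives run kept these values within the spread between tumours, or counts within 1.5 times. Only 3 sections enter every test.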
